A study of Mus musculus with 2 samples.

Results

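The immunoglobulin kappa variable genes (Igkv) encode most of the variable domain of the kappa light chain. They were taken as all genes whose symbol starts with Igkv, which gave 160 of the 32285 genes in the count matrices. Their use was read in single cells: a cell entered when it held at least 1 unique molecular identifier (UMI, a tag that counts 1 captured transcript once) of Cd79a or Mzb1, and its dominant segment was the Igkv gene holding at least 80% of its Igkv UMIs. Cd79a encodes a signalling subunit of the B cell receptor and Mzb1 a chaperone of antibody-secreting cells. This gate took 5333 of 9726 kept cells in the library CD163_NC and 4056 of 13650 in CD163_FL, and a dominant segment was called in 2465 and 1737 of them.

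The study profiled mouse immune cells of the gut lamina propria with the 10x 3' kit, in 2 libraries with 1 library per group. The labels mark both libraries as CD45+, the surface marker common to leukocytes, and the protocol names the colon, a Percoll interphase, sorting and 7-AAD to leave out dead cells. The title speaks of wild-type mice and of mice deficient in CD163+ macrophages, but no label ties either genotype to a library, and strain, age, sex and the number of animals pooled are likewise not stated. The libraries therefore keep their label names, no genotype is assigned, and a difference between them cannot be told apart from a difference between animals, preparations or lanes. With 1 library per group there is no test, and every interval below is a 95% interval that covers counting error only.

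A developing B cell joins 1 of many Igkv segments to 1 of a few joining segments (Igkj), and the joined exon is spliced to the constant exon Igkc. The segments lie on both strands, so that joining either deletes or inverts the DNA between the ends. Each B cell normally keeps 1 productive light chain, and its progeny, the plasma cells among them, inherit it, so cells of 1 clone share a segment. Plasma cells of the gut mostly secrete IgA, and their light and heavy chain transcripts are among the most abundant in the tissue.

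All 160 members matched the GENCODE M21 annotation of mm10 by gene identifier, and all lie on chromosome 6. The annotation calls 100 of them variable genes and 60 pseudogenes. Of the 100, 98 had at least 1 UMI, 86 were dominant in at least 1 cell and 52 were dominant in at least 20 cells. Of the pseudogenes, 42 had no UMI in either library and 6 were dominant, in 11 cells in all.

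The germline ends of 6 segments are shown because the results below turn on them and because 4 of them form near-identical pairs whose reads must be told apart. Each line is the last 60 bases of the annotated transcript, 5′ to 3′ on the coding strand. The capitals mark the codon of the conserved cysteine after which the third complementarity-determining region begins, the stretch that is completed by the joining segment.
Igkv1-110: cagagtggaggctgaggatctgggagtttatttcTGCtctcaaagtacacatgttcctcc
Igkv1-117: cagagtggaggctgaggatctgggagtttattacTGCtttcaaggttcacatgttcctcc
Igkv17-121: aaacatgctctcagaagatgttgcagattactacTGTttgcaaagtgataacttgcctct
Igkv17-127: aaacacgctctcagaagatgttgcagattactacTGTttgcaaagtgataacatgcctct
Igkv15-103: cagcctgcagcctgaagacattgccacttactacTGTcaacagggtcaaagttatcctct
Igkv8-27: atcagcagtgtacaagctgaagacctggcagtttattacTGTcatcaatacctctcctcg

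In mm10 these bases are chr6:68271208-68271267 for Igkv1-110, chr6:68121768-68121827 for Igkv1-117, chr6:68037259-68037318 for Igkv17-121, chr6:67861600-67861659 for Igkv17-127 and chr6:68437866-68437925 for Igkv15-103, all on the plus strand, and chr6:70171809-70171868 on the minus strand for Igkv8-27. They are the 3′ ends of the coding exons. Counted from 1 at the first base shown, Igkv17-127 differs from Igkv17-121 by T6C and T53A, and Igkv1-117 differs from Igkv1-110 by T33A, C39T, A44G and A47T. Over the whole annotated transcripts each of these pairs was 97.5% identical. Splits that left a cell without a call were rare for these pairs. Among gated cells with at least 10 Igkv UMIs and no dominant segment, Igkv17-121 and Igkv17-127 were the top 2 segments in none of 165 cells of CD163_NC and none of 119 of CD163_FL, and Igkv1-110 and Igkv1-117 in 3 and 0. In the 136 cells of CD163_NC with Igkv17-121 dominant and at least 10 Igkv UMIs, 4 of 7530 Igkv UMIs (0.0531%) were counted on Igkv17-127, a share that the 80% rule itself keeps below 20%. Stray counts were more common in the other pair. In the 122 such Igkv1-110 cells of CD163_NC, 86 of 12469 Igkv UMIs (0.690%) were counted on Igkv1-117, in 57 cells. In the 126 of CD163_FL it was 44 of 7141 (0.616%), in 39 cells. Of the Igkv1-117 cells, 18 of 83 and 14 of 96 held Igkv1-110 UMIs.

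Igkv transcripts sat almost wholly in plasma cells, and the gate alone did not isolate B lineage cells. Clusters were named only as like a cell type, from marker lists. Plasma cell-like cells held 94.9% of the 95073 Igkv UMIs of CD163_NC and 95.8% of the 48396 of CD163_FL. The median plasma cell-like cell held 34 Igkv UMIs in CD163_NC and 16 in CD163_FL, with an Igkv UMI in 93.9% (92.7 to 94.9) and 92.3% (91.0 to 93.6) of cells. In B cell-like cells the median was 0 in both libraries.

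B cell-like cells held an Igkv UMI in 36.1% of cells in CD163_NC and 17.9% in CD163_FL. CD4 T cell-like cells rearrange no kappa locus productively, yet held one in 27.3% and 11.8%. The median cell of this class had 5578 UMIs in CD163_NC and 6856.5 in CD163_FL, and the median B cell-like cell 4973 and 3960. The share in B cell-like cells was above that of CD4 T cells in each library, but not above that of all other classes: epithelial-like cells, with medians of 29961 and 31590 UMIs, stood at 50.3% and 21.2%, and mast cell-like cells of CD163_NC at 52.2%. Dendritic cell-like cells of CD163_FL stood at 18.3%. Germinal center B cell-like cells, with medians of 14143.5 and 9403 UMIs, stood at 64.3% and 45.3%. For segments, the CD4, CD8 and gamma delta T cell-like classes were pooled. The segments found in these pooled T cells mirrored those of the plasma cells of the same library. The Morisita-Horn overlap of their Igkv UMIs (1 for identical shares, 0 for none in common) was 0.985 in CD163_NC and 0.982 in CD163_FL. Between the pooled T cells of the 2 libraries it was 0.875. Igkv17-121, for example, made up 9.43% of the Igkv UMIs of the pooled T cells in CD163_NC and 1.26% in CD163_FL. In plasma cell-like cells it made up 8.84% and 1.40%.

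**Figure D1:**
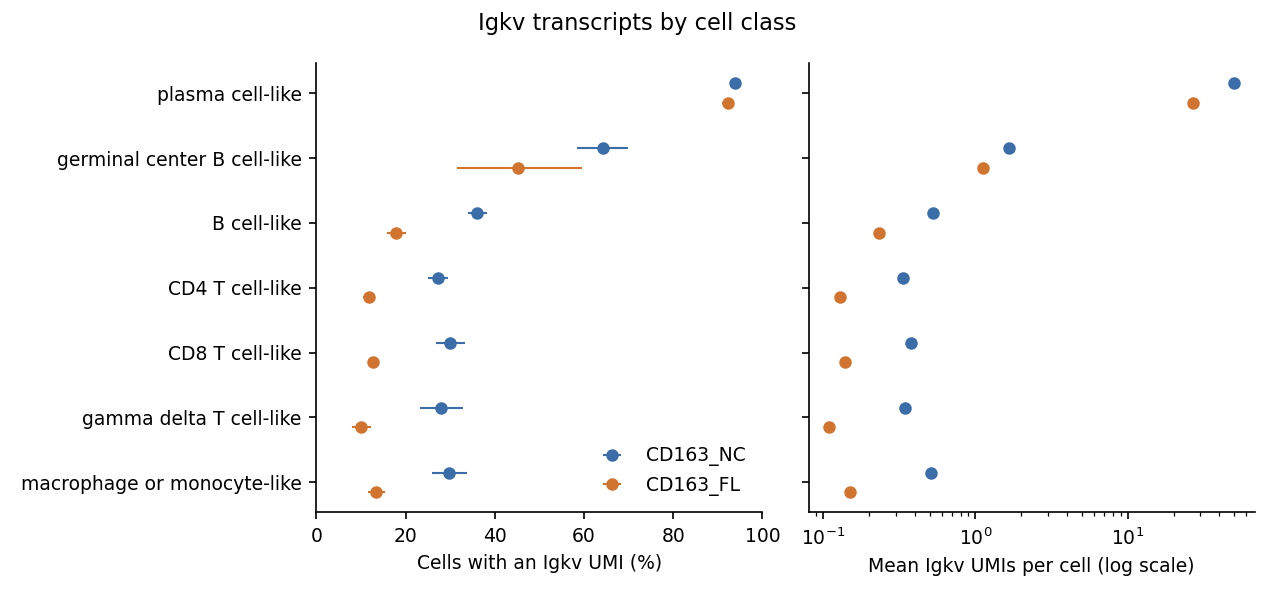
Share of cells with at least 1 Igkv UMI (left, with 95% exact binomial intervals) and mean Igkv UMIs per cell (right, log scale) for 7 cell classes in each library. Plasma cell-like cells stand at 93.9% and 92.3%, germinal center B cell-like cells at 64.3% and 45.3%, and B cell-like cells at 36.1% and 17.9%. T cell-like and macrophage-like cells lie close below the B cell-like cells, and each class is higher in CD163_NC.

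Many calls rested on counts near this background. Of the dominant calls, 981 of 2465 in CD163_NC and 408 of 1737 in CD163_FL rested on 1 Igkv UMI, for which the top segment holds 100% by construction, and 97 and 32 fell in CD4 T cell-like cells. Plasma cell-like cells made up 57.8% of the cells called in CD163_NC and 78.2% in CD163_FL. With at least 10 Igkv UMIs, the calls numbered 1274 and 1000, and 98.2% and 99.5% of them were plasma cell-like. Shares of usage are given below for these well covered cells, and by the rule alone where named. Usage in B cell-like cells, whose Igkv counts were near the background, is in effect not described.

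Among gated cells the dominant call was made in 46.2% in CD163_NC and 42.8% in CD163_FL, a ratio of 0.927 (0.885 to 0.970). It was 1.18 (1.11 to 1.26) with at least 3 Igkv UMIs and 1.03 (0.960 to 1.11) with at least 10, the latter interval including 1.

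Where 10 or more Igkv UMIs were present, 1 segment usually held nearly all of them, with a median top share of 96.8% in CD163_NC and 96.4% in CD163_FL. No dominant segment was called in 165 of 1439 such gated cells (11.5%) in CD163_NC and 119 of 1119 (10.6%) in CD163_FL. In 158 and 113 of those, 2 segments together held at least 80%, and their median depths of 22674 and 22442 UMIs were above the 19029 and 19588.5 of the cells with a call. Whether these are doublets or cells with 2 kappa transcripts was not tested. Just below the threshold, with a top share of 75 to 80%, lay 44 and 23 cells, and just above it, at 80 to 85%, lay 61 and 50.

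Usage was broad and led by a few segments. Among well covered cells 71 segments were dominant in CD163_NC and 72 in CD163_FL, 65 of them in both. The effective number of segments, the exponential of the Shannon entropy and so the number of equally used segments that would give the same spread, was 38.2 and 39.3. The 10 commonest segments held 52.2% and 50.4% of the cells.

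Igkv1-110 and Igkv1-117, a near-identical pair, were prominent in both libraries. Igkv1-110 was dominant in 122 cells of CD163_NC, 9.58% (8.02 to 11.3), and in 126 cells of CD163_FL, 12.6% (10.6 to 14.8). Igkv1-117 was dominant in 83 cells, 6.51% (5.22 to 8.01), and in 96 cells, 9.60% (7.85 to 11.6). Their intervals overlap between the libraries, although the ratio of CD163_FL to CD163_NC was 1.32 (1.04 to 1.66) for Igkv1-110 and 1.47 (1.11 to 1.95) for Igkv1-117. By the rule alone, single UMIs included, these ratios were 1.02 (0.861 to 1.21) and 1.07 (0.884 to 1.30).

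Igkv17-121 was among the commonest segments of CD163_NC and a minor one in CD163_FL. It was dominant in 136 well covered cells of CD163_NC, 10.7% (9.03 to 12.5), and in 17 of CD163_FL, 1.70% (0.993 to 2.71). In CD163_NC its interval overlaps that of Igkv1-110, which had more cells by the rule alone (287 against 229). Between the libraries its intervals lie far apart, and the ratio of CD163_FL to CD163_NC was 0.16 (0.10 to 0.26). By the rule alone the cells numbered 229 and 23, a ratio of 0.14 (0.09 to 0.22). Its near-identical relative Igkv17-127 was dominant in 40 cells (3.14%) and 18 cells (1.80%), a ratio of 0.57 (0.33 to 0.99), and by the rule alone of 0.97 (0.68 to 1.38).

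For several other common segments the intervals overlapped between the libraries. Igkv10-96 was dominant in 6.04% (4.80 to 7.50) of well covered cells of CD163_NC and 4.40% (3.21 to 5.86) of CD163_FL. Igkv15-103 was dominant in 4.16% (3.13 to 5.41) and 4.50% (3.30 to 5.98), and Igkv6-23 in 3.85% (2.86 to 5.05) and 3.60% (2.53 to 4.95). Within each library the intervals of these 3 segments overlap from one to the next, so neighbours cannot be ranked. Igkv12-44 and Igkv5-43 stood at 2.43% each in CD163_NC and 2.40% and 2.60% in CD163_FL.

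Other segments leaned to 1 library. Igkv8-27 was dominant in 15 well covered cells of CD163_NC (1.18%) and 34 of CD163_FL (3.40%), a ratio of 2.89 (1.58 to 5.27), and Igkv8-30 in 21 (1.65%) and 33 (3.30%), a ratio of 2.00 (1.17 to 3.44). Igkv6-15 had a ratio of 1.89 (1.17 to 3.05). In the other direction, Igkv5-48 was dominant in 40 and 15 cells, a ratio of 0.48 (0.27 to 0.86), and Igkv12-46 in 32 and 13, a ratio of 0.52 (0.27 to 0.98). For Igkv5-48, 13 paired cells of CD163_NC and none of CD163_FL were of 1 combination, with Ighv3-8. Its ratio in paired cells was 0.80 (0.42 to 1.52) without that combination, a step that raises the ratio by construction. Only Igkv8-27 and Igkv9-124 among the segments with higher shares in CD163_FL, and only Igkv17-121 among those with lower shares, had an interval wholly past 1.5-fold in well covered cells. Igkv9-124, in 7 and 22 cells, was picked out after its values were seen.

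Over all segments with at least 20 well covered cells, 9 of 35 (25.7%) were at least 1.5-fold higher in CD163_FL and 8 (22.9%) at least 1.5-fold lower. By the rule alone, 15 of 52 (28.8%) were higher and 9 (17.3%) lower. With each combination of kappa and heavy segment counted once per isotype and library, 1 of 21 was higher and 5 lower in well covered cells, and 4 and 2 of 32 by the rule. The immunoglobulin heavy variable segments (Ighv), called in the same way, gave 14 of 54 (25.9%) higher and 12 (22.2%) lower, shares close to those of the kappa segments. The Morisita-Horn overlap of kappa usage between the libraries was 0.836 in well covered cells and 0.891 by the rule alone, and 0.938 and 0.942 with each combination counted once.

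**Figure D2:**
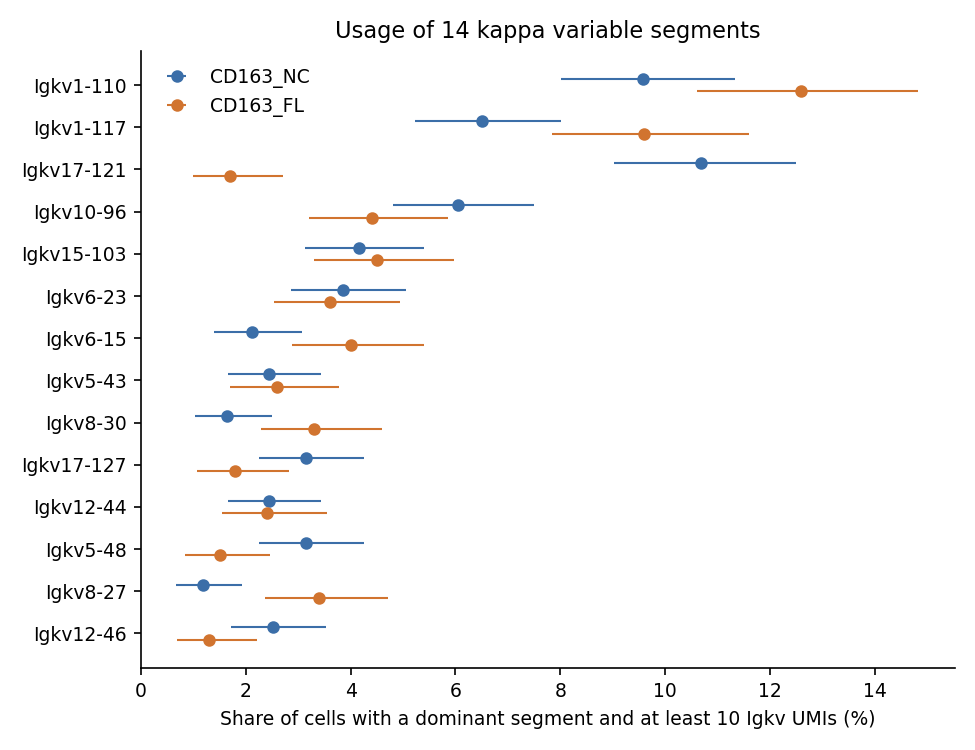
Share of well covered cells (at least 10 Igkv UMIs) in which each of 14 segments was dominant, with 95% exact binomial intervals, in CD163_NC (1274 cells) and CD163_FL (1000 cells). Igkv17-121 is at 10.7% in CD163_NC and 1.70% in CD163_FL, and its intervals lie farther apart than those of the other 13 segments.

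By family, the groups of segments that share the first number of their name, Igkv17 and Igkv1 shifted most in percentage points among well covered cells. The 3 genes of family Igkv17 were dominant in 13.8% (11.97 to 15.8) of well covered cells of CD163_NC and 3.50% (2.45 to 4.83) of CD163_FL. The 13 genes of family Igkv1 held 18.1% (16.0 to 20.3) and 25.7% (23.0 to 28.5), but by the rule alone 22.9% and 24.99%, a smaller shift than that of Igkv8, from 6.33% to 9.67%. The family with the most genes, Igkv4 with 33, held only 8.56% and 8.10%, fewer cells than the 9 genes of Igkv6, with 10.6% and 13.4%. Families Igkv7, Igkv18 and Igkv20, with 1 gene each, were dominant in no well covered cell of either library.

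Position along the locus was uneven but not graded. Used segments lay from the Igkj end to the far end, and the share of a segment had a Spearman rho of -0.05 in CD163_NC and -0.04 in CD163_FL with its distance from Igkj1, over 100 genes that share 1 locus and the same libraries. The 42 genes more than 1583 kb from Igkj1, the midpoint of the locus, held 55.5% and 54.1% of well covered cells. The 17 genes from 1000 to 1500 kb and the 14 from 1500 to 2000 kb held 6.04% and 5.10% in CD163_NC and 5.81% and 5.11% in CD163_FL. In contrast, the 12 genes from 2000 to 2500 kb, with Igkv1-110 and Igkv15-103 among them, held 26.9% and 29.3%. Genes from 2500 to 3000 kb, where Igkv17-121 and Igkv1-117 lie, held 22.4% and 17.0%.

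Genes on the same strand as the joining segments, which join by deletion, number 38 of 100. They held 53.4% of well covered cells in CD163_NC and 50.3% in CD163_FL. A gene on that strand had a median share of 0.628% and 0.700%, against 0.314% and 0.300% for a gene on the opposite strand. The recombination signals beside the segments were not analysed here. Joining segments themselves could not be read, since the 5 Igkj genes together had 1 UMI in each library.

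**Figure D3:**
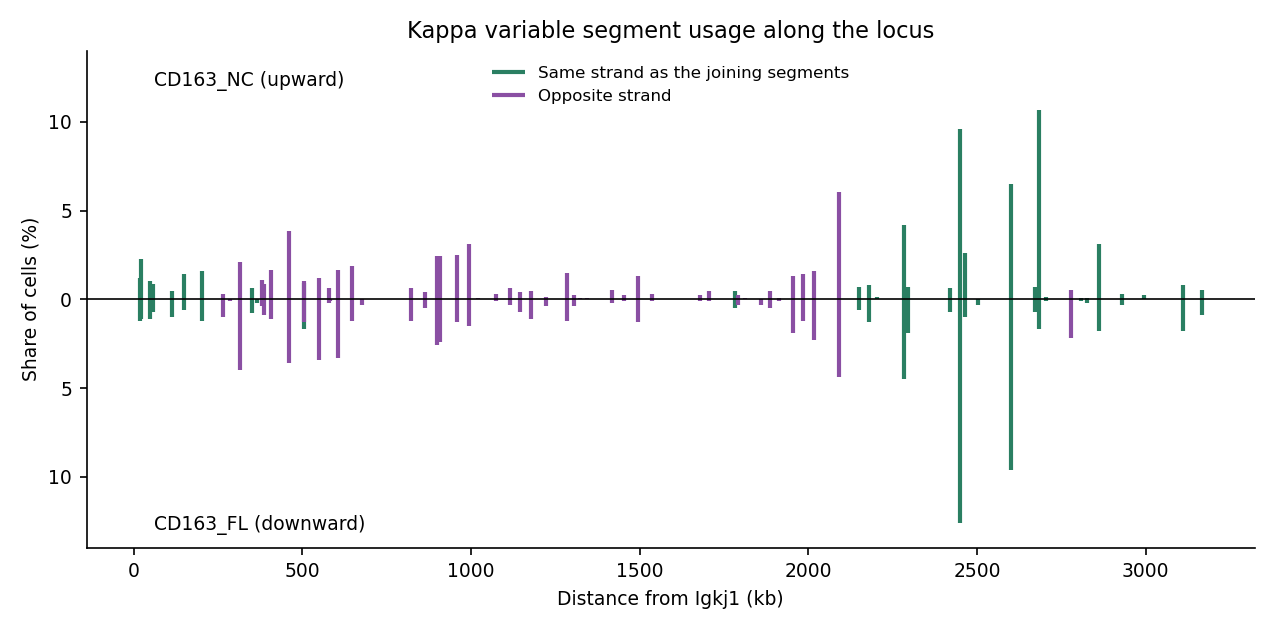
Share of well covered cells by segment against the distance of the segment from Igkj1 in kb, upward for CD163_NC and downward for CD163_FL, with colour for the coding strand relative to the joining segments. The tallest line of each library lies between 2000 and 3000 kb on the strand of the joining segments, and few segments between 1000 and 2000 kb pass 1%.

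Isotype was called from the heavy constant transcripts (at least 3 UMIs, with 1 class holding at least 80%). Nearly all well covered cells were IgA: 1155 of 1274 in CD163_NC and 890 of 1000 in CD163_FL. IgG2b gave 37 and 47 cells and IgG2c 68 and 48, and these were joined as IgG2 to reach strata of 105 and 95 cells. IgM or IgD was called in 4 and 3 cells, too few to describe usage, and IgE in none. Of the cells dominant by the rule, 552 and 190 had no clear isotype, and only 1.27% and 7.89% of those were plasma cell-like.

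Igkv17-121 had a higher share of IgG2 cells, the 2 classes pooled, than of IgA cells in both libraries. In CD163_NC it was dominant in 20 of 105 IgG2 cells, 19.0% (12.04 to 27.9), against 113 of 1155 IgA cells, 9.78% (8.13 to 11.6). In CD163_FL it was dominant in 7 of 95 IgG2 cells, 7.37% (3.01 to 14.6), against 10 of 890 IgA cells, 1.12% (0.540 to 2.06). The IgG2 to IgA ratio was 1.95 (1.26 to 3.0) and 6.56 (2.56 to 16.8). In CD163_FL 6 of those 7 cells were IgG2b: the share was 12.8% (4.83 to 25.7) of 47 IgG2b cells and 2.08% (0.0527 to 11.1) of 48 IgG2c cells, the latter near that of IgA. In CD163_NC it was 27.0% of 37 IgG2b cells and 14.7% of 68 IgG2c cells. The lower share in CD163_FL was thus met in both isotypes, although the intervals of the IgG2 strata overlap between the libraries.

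Igkv1-110 leaned the other way. It was dominant in 10.2% of IgA cells and in 4 of 105 IgG2 cells (3.81%) in CD163_NC, a ratio of 0.37 (0.14 to 0.99). In CD163_FL the values were 13.4% and 3 of 95 (3.16%), a ratio of 0.24 (0.08 to 0.73). For Igkv1-117, Igkv10-96, Igkv15-103 and Igkv17-127 the interval of this ratio included 1 in both libraries. IgA and IgG2 usage overlapped with a Morisita-Horn value of 0.801 in CD163_NC and 0.690 in CD163_FL, beside 0.837 between the IgA cells of the 2 libraries. The strata differ widely in size, so these values are not ranked.

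**Figure D4:**
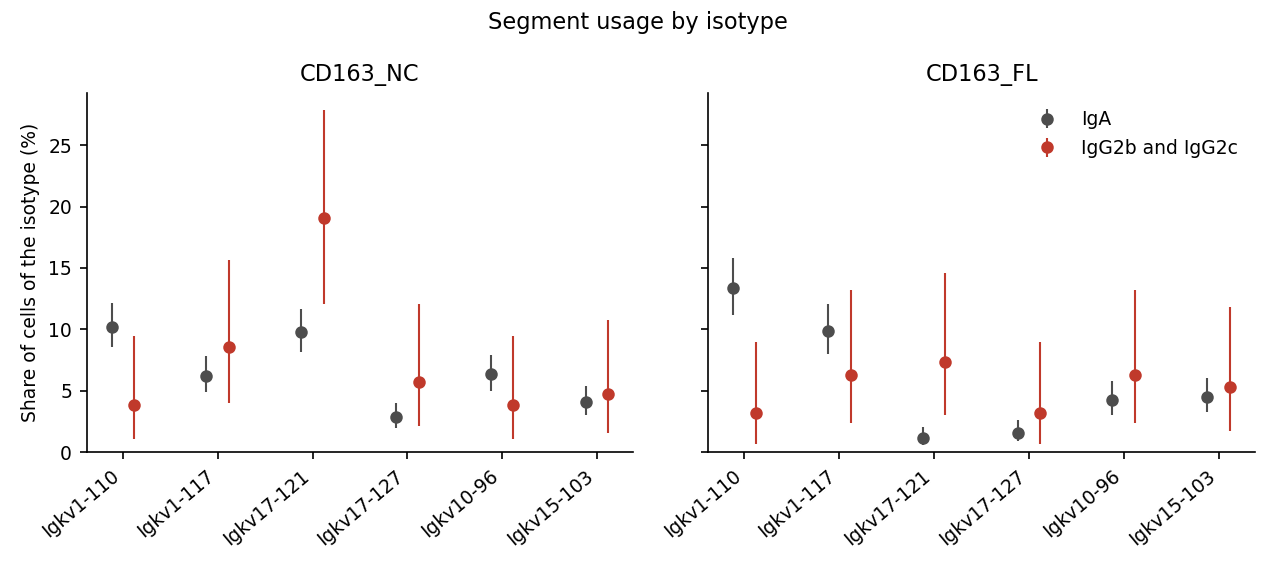
Share of well covered IgA cells and of IgG2b and IgG2c cells in which each of 6 segments was dominant, with 95% exact binomial intervals, by library. Igkv17-121 is the highest point of the IgG2 cells in CD163_NC (19.0%), and Igkv1-110 lies lower in IgG2 than in IgA cells in both libraries.

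Pairing with heavy chains showed that a few combinations held many cells each. A dominant Ighv segment (at least 3 Ighv UMIs, same 80% rule) was found in 1179 of 1274 well covered cells (92.5%) of CD163_NC and 910 of 1000 (91.0%) of CD163_FL. They formed 578 and 461 combinations, of which 383 and 313 held 1 cell. Combinations with at least 10 cells numbered 12 and 8 and held 20.9% and 17.3% of the paired cells. The libraries shared 160 combinations, 27.7% of those of CD163_NC and 34.7% of those of CD163_FL, and the shared ones held 45.4% and 49.8% of the cells. A shared pair of segments does not show a shared clone, since no junction sequence was read.

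Most cells with Igkv17-121 in CD163_NC used Ighv1-72. This pair was found in 73 cells of CD163_NC, 6.19% (4.88 to 7.72) of paired cells, and in 3 of CD163_FL, 0.330% (0.068 to 0.960). It made up 61.9% of the 118 paired Igkv17-121 cells of CD163_NC, and 66 of the 73 cells were IgA, 5 IgG2b and 2 IgG2c. Where at least 10 Ighv UMIs were asked for, the pair was held by 40 of 1025 cells of CD163_NC, 3.90%, a lower share than in all paired cells. The other cells of the pair in CD163_NC had fewer than 10 Ighv UMIs. In CD163_FL 0 of 697 cells held it, which allows a share of up to 0.430%. In 32 of its 73 cells the pair lay in the plasma cell-like cluster led by Jchain, Igkc, Igha and Txndc5, and in another 32 in the cluster led by Jchain, Igkc, Mzb1 and Eaf2.

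The lower share of Igkv17-121 in CD163_FL did not rest on that pair alone. In all paired cells its ratio of CD163_FL to CD163_NC was 0.14 (0.08 to 0.25), and without the pair it was 0.27 (0.14 to 0.53), from 45 of 1106 and 10 of 907 cells. With each combination counted once per isotype and library it was 0.40 (0.20 to 0.81), from 31 of 621 and 10 of 499. Igkv17-127 also used Ighv1-72 most in CD163_NC, in 13 of 35 paired cells (37.1%), against 1 of 16 in CD163_FL. Ighv1-72 was the heavy segment of 110 paired cells of CD163_NC (9.33%) and 30 of CD163_FL (3.30%), and outside Igkv17-121 cells its share was 3.49% and 3.01%.

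Several other segments were compared without 1 pair, an alternative chosen after seeing the data. The pair left out was the one with the most cells in either library. Igkv1-110 and Igkv1-117 without Ighv1-81 had ratios of 1.08 (0.80 to 1.46) and 1.13 (0.758 to 1.67), where all paired cells gave 1.27 (0.993 to 1.63) and 1.51 (1.13 to 2.03). Igkv5-48 without Ighv3-8 went from 0.53 (0.29 to 0.95) to 0.80 (0.42 to 1.52). Igkv6-15 without Ighv1-78 went from 2.05 (1.24 to 3.39) to 1.59 (0.92 to 2.75). Igkv17-127 without Ighv1-72 went from 0.59 (0.33 to 1.06) to 0.87 (0.46 to 1.68). The intervals of these 5 segments include 1 without the pair, and those of Igkv1-110 and Igkv17-127 did so in all paired cells as well. Each pair left out leaned to the same library as its segment. Leaving it out therefore moves the ratio toward 1 by construction and lowers the counts, so whether 1 pair carried a difference was not tested. Igkv8-27 without Ighv2-2, found in 0 and 9 cells, was at 2.06 (1.06 to 3.996), and Igkv8-30 without Ighv1-26 at 2.14 (1.11 to 4.13). Igkv12-46 without Ighv10-3 moved from 0.54 (0.28 to 1.04) to 0.31 (0.14 to 0.71). Igkv10-96 without Ighv1-9 moved from 0.74 (0.51 to 1.07) to 0.65 (0.44 to 0.97). These pairs gave 0 and 5 cells, and 2 and 6 cells, so leaving them out lowers the ratio by construction. Igkv10-96 with Ighv1-54, its commonest pair in CD163_NC, gave 5 and 4 cells and was not left out.

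Igkv1-117 and Igkv1-110 shared Ighv1-81 as their commonest partner in both libraries. Igkv1-117 with Ighv1-81 was found in 26 cells of CD163_NC, 2.21% (1.45 to 3.21), and in 47 of CD163_FL, 5.16% (3.82 to 6.81). Igkv1-110 with Ighv1-81 was found in 25 cells, 2.12% (1.38 to 3.11), and in 39, 4.29% (3.07 to 5.81). All of these cells were IgA. Ighv1-81 was used by 6.28% of paired cells of CD163_NC and 11.3% of CD163_FL.

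Some pairs recurred in both libraries. Igkv1-110 with Ighv1-12 gave 23 and 13 cells, which is 65.7% and 65.0% of all paired Ighv1-12 cells. Igkv15-103 with Ighv9-2 gave 13 and 17 cells, 81.2% and 81.0% of paired Ighv9-2 cells, while Igkv15-103 was dominant in 4.33% and 4.62% of all paired cells. Igkv6-23 with Ighv6-3 gave 10 and 9 cells.

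Partner choice differed between the segments. Igkv15-103 was found with only 11 heavy segments in 51 paired cells of CD163_NC and 7 in 42 of CD163_FL. Igkv10-96 was found with 35 in 72 cells and 23 in 41, and its commonest partner took 6.94% and 14.6% of its cells. Other pairs were seen almost only in CD163_NC: Igkv8-21 with Ighv1-9 gave 15 and 2 cells, and Igkv5-48 with Ighv3-8 gave 13 and 0, where 0 of 910 allows a share of up to 0.330%. In the other direction Igkv6-15 with Ighv1-78 gave 1 and 10 cells.

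**Figure D5:**
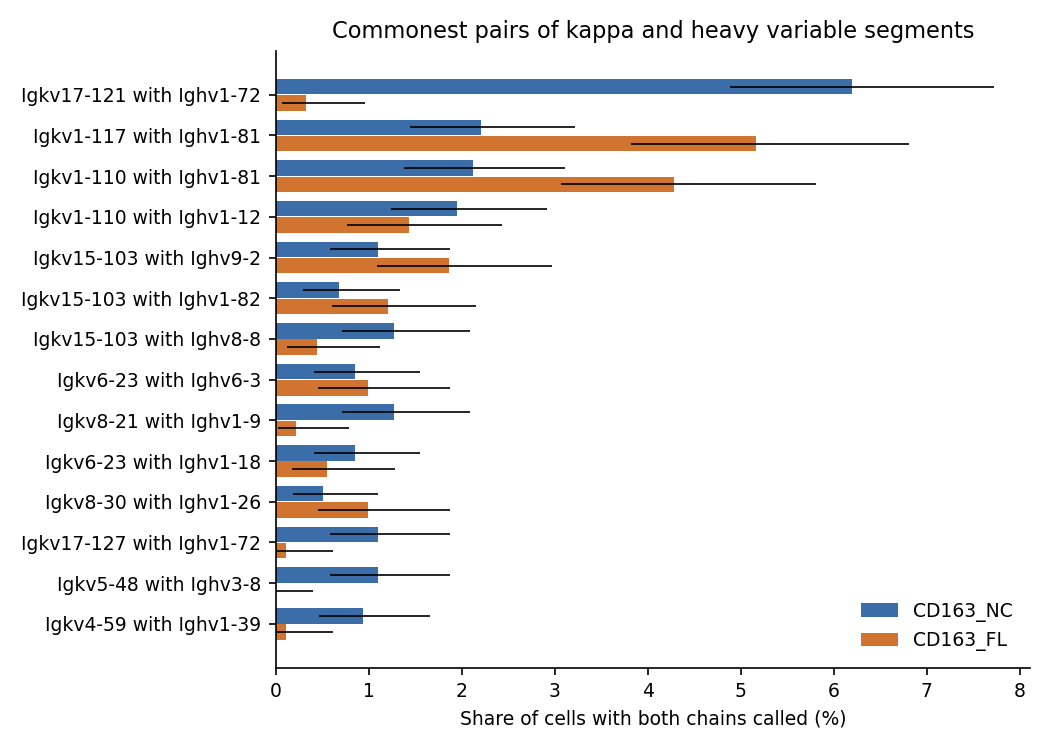
The 14 commonest pairs of kappa and heavy variable segments as a share of cells with both chains called (1179 in CD163_NC, 910 in CD163_FL), with 95% exact binomial intervals. Igkv17-121 with Ighv1-72 reaches 6.19% in CD163_NC and 0.330% in CD163_FL, and both pairs with Ighv1-81 are higher in CD163_FL.

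Usage also differed between the plasma cell-like clusters. In the cluster led by Jchain, Igkc, Mzb1 and Eaf2, which held most IgG2 cells, Igkv17-121 was dominant in 63 of 269 well covered cells of CD163_NC (23.4%) and 14 of 427 of CD163_FL (3.28%). In the cluster led by Igha and Txndc5 beside Jchain and Igkc, it was dominant in 61 of 869 (7.02%) and 2 of 544 (0.368%). The lower share in CD163_FL was seen in both clusters. Igkv1-110 led the second of these clusters in both libraries, with 11.6% and 15.4% of well covered cells.

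Lambda cells were compared with kappa cells in their Igkv counts. Plasma cell-like cells with more lambda (Iglc) than kappa (Igkc) constant UMIs numbered 129 of 1795 (7.19%, 6.03 to 8.48) in CD163_NC and 89 of 1738 (5.12%, 4.13 to 6.26) in CD163_FL. Their median was 1 Igkv UMI in each library, against 38 and 18 in cells with more Igkc. A well covered kappa call was made in 10.9% and 4.49% of the lambda cells, against 74.2% and 60.1% of the kappa cells. Such a call needs at least 10 Igkv UMIs, so these shares reflect the counts and do not check the dominance rule. Of the lambda cells, 19 and 5 had at least 10 Igkv UMIs, and 14 and 4 had a dominant segment at that coverage.

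Igkv levels in plasma cell-like cells were lower in CD163_FL relative to all transcripts, while those of Igkc were nearly level. Of 83 Igkv genes with at least 20 UMIs in these cells, 46 were at least 1.5-fold lower in CPM (the UMIs of a gene scaled by all UMIs of these cells) in CD163_FL and 13 at least 1.5-fold higher, against 17.4% and 11.2% of all 13972 genes measured the same way. The median log2 difference in CPM (CD163_FL over CD163_NC) was -0.65 for the Igkv genes and -0.05 for all genes. Igkv17-121 was at 235 CPM in CD163_NC and 20.9 CPM in CD163_FL, a log2 difference of -3.49. Igkv1-110 was at 399 and 236 CPM (-0.76) and Igkv8-27 at 29.7 and 53.7 CPM (0.85). Thus Igkv1-110, whose share of well covered cells was higher in CD163_FL, had a lower level there.

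The same was seen in the heavy chain. Of 94 Ighv genes, 57 were at least 1.5-fold lower and 11 higher, with a median log2 difference of -0.99. Per 1000 Igkc UMIs plasma cell-like cells held 12.3 Igkv UMIs in CD163_NC and 7.42 in CD163_FL, and per 1000 heavy constant UMIs they held 12.4 and 5.57 Ighv UMIs. Igkc itself was at 215703 and 200798 CPM, a log2 difference of -0.10. Plasma cell-like cells with more Igkc than Iglc and no Igkv UMI numbered 51 (3.06%) and 92 (5.58%). A 3' library reads a variable exon only from fragments that reach far from the transcript's end. Levels of single Igkv genes are given as recorded, and usage is read from shares of cells. These shares are not free of the levels, since a well covered call needs at least 10 of the same Igkv UMIs. Such calls were made in 74.2% of the kappa cells of CD163_NC and 60.1% of those of CD163_FL. Whether this difference shifts the shares of single segments was not tested.

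Among other genes of the light chain loci, 7 of 12 were measured, and none was at least 1.5-fold higher and 3 were lower in CD163_FL. The lambda constant genes Iglc2 and Iglc3 had log2 differences of -0.95 and -1.27, while Iglc1 and the lambda variable gene Iglv1 were at -0.10 and -0.09. Of the B cell receptor partners, Cd79a was at -0.33 and Cd79b at -0.02, and Ms4a1, which encodes the B cell surface protein CD20, was at 7.79 and 2.37 CPM (-1.71). Of the 8 secretion genes, 1 was higher and 1 lower: Prdm1, a transcription factor of plasma cell differentiation, was at 79.2 CPM and 157 CPM (0.99), and Tnfrsf17, a survival receptor of plasma cells, at 159 and 90.4 CPM (-0.81). Jchain, which joins IgA into dimers, and Xbp1, which drives the secretory programme, were each at 0.10.

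Of the genes of recombination and of the surrogate light chain, 3 of 6 were measured. All 3 were lower in CD163_FL, where 17.4% of all genes were: Vpreb3 at 75.4 and 42.3 CPM (-0.83), Vpreb1 with 53 and 8 UMIs and Dntt with 21 and 0. The last 2 rest on few UMIs, Dntt close to the minimum of 20. Of the genes of hypermutation and class switching, 4 of 5 were measured and 1 was lower, the repair endonuclease Apex1 at 11.1 and 4.55 CPM (-1.28). The mismatch repair gene Msh6 was at -0.10.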

How the data were processed

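The deposited values are UMI counts per gene and cell barcode, not normalized, and per the file headers the matrices were written by Cell Ranger 7.1.0. The submitters' processing notes name mm10 and Seurat 4, with no role given. Whether free RNA was corrected, and which annotation was counted, is not given in the sources used here. CD163_NC held 10390 barcodes with 94729872 UMIs and CD163_FL 15270 with 131306539, and 49 barcode sequences occurred in both. Each library gave 1 replicate, so no test was made.

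Kept were barcodes with at least 500 UMIs, 200 genes and at most 10% mitochondrial UMIs. Scrublet, run per library with an expected rate of 0.8% per 1000 cells, called 286 and 729 doublets, fewer than expected (2.86% against 8.01%, and 5.07% against 11.5%), so some will have stayed. The kept cells, 9726 and 13650, had medians of 6026.5 and 6442 UMIs. They were clustered jointly (scanpy 1.11.5, Python 3.11.15, 2000 variable genes, 30 principal components, 15 neighbours, Leiden resolution 1), and clusters were named from 13 marker lists.

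Shares have exact binomial (Clopper-Pearson) intervals and ratios log-normal intervals, at 95%. A limit for 0 cells is 3 counts. UMIs of plasma cell-like cells were summed per library for CPM, for genes with at least 20 UMIs. Dominance calls were tested on simulated data. Named are the 12 segments with the highest mean share by the rule, the top 3 of each isotype and library stratum of at least 50 cells, and up to 6 each way with at least 30 cells and a ratio interval past 1.5-fold; genes in pairs follow the commonest pairs. The members, lists and rules were chosen with earlier results of these data known. Germline sequences and coordinates come from GENCODE M21 (mm10). Alternatives varied the dominance threshold, UMI minimum, gate, filters, depth and the counting of pairs.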

Additional observations from a re-analysis of the deposited data

How the results depend on the processing

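The share of gated cells with a call, at a CD163_FL to CD163_NC ratio of 0.927, turned to 1.14 with a gate of at least 3 UMIs, 1.06 with cells of B or plasma clusters only, 1.18 and 1.03 with at least 3 and 10 Igkv UMIs, and 1.02 with each cell thinned to 1000 UMIs (541 and 255 shallower cells left out), and was 0.876 and 0.859 with dominance at 50% and 95%. By the rule the effective number of segments was 39.3 in CD163_NC and 43.0 in CD163_FL. In CD163_FL it was 39.3 with at least 10 Igkv UMIs, 40.5 with dominance at 95% and 39.6 when thinned. In CD163_NC it was 37.6 with dominance at 95%. With each pair of segments counted once, from 1 Ighv UMI upward, it was 50.1 and 53.1, and 49.2 and 50.4 when 10 Igkv UMIs were also asked for. The 15 higher and 9 lower segments became 4 and 2 of 32 compared with each pair counted once, 1 and 5 of 21 with 10 Igkv UMIs as well, 6 and 5 of 26 with at least 50 cells per segment, 9 higher of 35 with at least 10 Igkv UMIs, 7 higher of 30 when thinned and 5 lower of 49 with the stricter gate. The overlap of the libraries, 0.891 in all cells and 0.870 in IgA cells, was 0.836 and 0.837 with at least 10 Igkv UMIs, 0.848 and 0.828 when thinned, and 0.849 in all cells with at least 3. It was 0.942 and 0.939 with each pair counted once, 0.938 and 0.935 with 10 Igkv UMIs as well, and 0.942 and 0.937 without the cells of Igkv17-121 with Ighv1-72. Counting a pair once leaves fewer cells and fewer segments to compare, and removing 1 pair removes its cells by construction; the cause of the other changes was not tested. The median Igkv log2 difference ranged from -0.68 to -0.46 over 4 alternatives. Leaving out barcodes found in both libraries, leaving out the commonest pair, and counting pairs once in well covered cells were chosen after seeing the data. Without those shared barcodes the call ratio was 0.924 and the overlap of the libraries 0.891. No paired analysis was possible because each group has 1 library. Low Igkv counts limit calls in cells other than plasma cells, and usage in IgG2 cells rests on about 100 cells per library.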
